A study of Mus musculus with 14 samples.

Results

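The genes described here encode the histone methyltransferase DOT1L and the partners that tether it to chromatin or that are joined to it in leukaemia. They are Dot1l itself, Mllt1 (ENL), Mllt3 (AF9), Mllt6 (AF17), Mllt10 (AF10), Aff1 (AF4), Aff3 (LAF4), Aff4 (AF5q31), Kmt2a (MLL1) and Men1 (menin). Members were picked out by gene symbol, from a list drawn up with earlier results of these data known. Of the symbols, 10 of 10 were found, each in 1 row, among the 22048 genes of the deposited protein-coding count table. All 10 were among the 12343 genes that passed the filter on low counts and were tested.

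DOT1L places methyl groups on H3K79, a lysine on the outer face of the nucleosome core, and is the enzyme known for this mark. The YEATS domain proteins AF9 and ENL recruit it, AF10 and AF17 bind it through its coiled coils, and the same AF9 and ENL also join the AFF scaffolds AF4, LAF4 and AF5q31 in the super elongation complex with the kinase P-TEFb. MLL1, guided by menin, methylates H3K4 at promoters, and in leukaemia its gene fuses with AF9, ENL, AF10 or AF4, which brings DOT1L or elongation factors to MLL1 target genes.

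RNA sequencing measured mouse CD4+ T cells from animals with an IFN-g-YFP reporter on the C57BL/6 background, taken from spleen together with peripheral lymph nodes. The naive group (n = 3) was sorted as CD4+ CD44- CD62L+ and never cultured. Enriched CD4+ cells, a broader starting population, were kept for 4 days on 1 µg/ml of plate-bound anti-CD3 plus the same amount of anti-CD28, with IL-2 and IL-12 (10 ng/ml each) and anti-IL4 (10 µg/ml), and received 1 µM of the DOT1L inhibitor SGC0946 or of SGC0649, its control compound. A final sort on the reporter gave YFPpos cells (3 libraries for each compound) and YFPneg cells (2 libraries for SGC0649, 3 for SGC0946). All animals carried the reporter, and neither ages nor the number of animals behind a library are stated. A culture without either compound was not analysed here. The study design calls the replicates biological, and nothing says that they came from separate animals, so p-values measure the spread between these libraries. The starting population, the culture and the sort all separate the cultured groups from the naive cells and cannot be told apart. In bulk RNA, fewer cells of a type and less RNA per cell cannot be told apart either.

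Promoters are shown for Dot1l, the inhibitor's target, and for Mllt3 and Aff3, the 2 members whose response to the inhibitor differed between the sorts in edgeR's test, though not under every alternative. Each is the 250 bases before the start that RefSeq gives in GRCm38.p6, written along the gene's strand. Capitals mark the GC box GGGCGG and the ETS motif CCGGAAG on either strand, with overlapping matches counted. The Dot1l window is chr10:80754953-80755202 on the + strand, the Mllt3 window chr4:88033408-88033657 on the - strand and the Aff3 window chr1:38627245-38627494 on the - strand.
Dot1l: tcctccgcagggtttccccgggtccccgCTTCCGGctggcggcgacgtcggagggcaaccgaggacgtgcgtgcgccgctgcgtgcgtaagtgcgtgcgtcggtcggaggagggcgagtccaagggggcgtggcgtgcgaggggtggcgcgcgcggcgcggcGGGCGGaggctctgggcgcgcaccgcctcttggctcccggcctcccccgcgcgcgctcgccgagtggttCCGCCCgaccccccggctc
Mllt3: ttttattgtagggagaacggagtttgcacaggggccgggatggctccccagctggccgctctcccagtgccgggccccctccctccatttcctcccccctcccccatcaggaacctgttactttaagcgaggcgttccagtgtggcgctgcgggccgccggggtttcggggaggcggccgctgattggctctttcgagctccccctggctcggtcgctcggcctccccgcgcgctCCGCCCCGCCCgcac
Aff3: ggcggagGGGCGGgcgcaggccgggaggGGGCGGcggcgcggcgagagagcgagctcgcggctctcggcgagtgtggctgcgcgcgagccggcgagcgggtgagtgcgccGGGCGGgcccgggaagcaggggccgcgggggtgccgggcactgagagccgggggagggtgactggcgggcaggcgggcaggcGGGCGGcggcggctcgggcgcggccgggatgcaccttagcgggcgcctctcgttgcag
The Dot1l window holds 2 GC boxes and 1 ETS match, the Mllt3 window 2 GC boxes and the Aff3 window 4. GC boxes occur in 32.7% of all 32851 windows of this length and the ETS letters in 6.91%. All 3 windows are rich in CpG, with 44 CpG in Dot1l, 23 in Mllt3 and 41 in Aff3 beside a median of 6 over all windows. The letters of AP-1 (TGANTCA, in 6.75% of windows), RUNX (TGTGGT, 14%), STAT (TTCNNNGAA, 7.02%), NF-kappaB (GGGANTTCC, 1.43%) and the TATA box (TATAAA, 12.4%) are in none of these 3 windows, read on both strands. Mllt3 has 2 such windows in RefSeq, and 1 is shown. The Aff3 window lies inside the first intron of the longer GENCODE transcripts, at an inner start.

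Total counts per library were 14486577 to 31614057, and the highest belonged to a YFPpos SGC0946 library. The 4 T cell markers in the table, of 5 listed, summed to 1220 to 2450 CPM (counts per 1000000, scaled between libraries by the TMM method), with the highest sums in naive cells. Summed over each list, markers of B cells reached at most 2.61 CPM, of NK cells 1.13, of myeloid cells 7.26 and of erythroid cells 1.53. The CD8 T cell pair Cd8a and Cd8b1 summed to 16.1 to 19.3 CPM in naive cells, 12.2 to 19.7 in YFPneg SGC0946 and 4.76 to 9.51 in the other cultured groups. Unmapped reads made up 7.40 to 8.66% in naive libraries, 3.44 to 4.41% in YFPneg SGC0649, 3.14 to 4.62% in YFPneg SGC0946, 6.44 to 8.35% in YFPpos SGC0649 and 3.61 to 8.12% in YFPpos SGC0946. Reads outside annotated features made up 11.6 to 11.8% in naive and 7.07 to 9.08% in cultured libraries. Their part in the results was not tested.

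Every member was well covered, from 992 counts for Men1 in a naive library to 22287 for Kmt2a. Per kilobase of annotated exon, Mllt6 led in all 5 groups, with a naive level of 107 RPKM ± 3.06 (SD, n = 3). Kmt2a was second in naive cells at 77.3 RPKM ± 4.44 (n = 3), and the other members followed from Mllt10 at 24.8 down to Mllt3 at 13.1. The naive levels of Aff3, Mllt1, Dot1l, Aff4 and Men1 formed a chain of neighbours whose libraries overlapped, with 19.2 RPKM for Dot1l and 16.9 for Men1. In YFPpos SGC0649 cells Kmt2a had 21.7 RPKM ± 0.351 (n = 3), behind Mllt1, Dot1l and Men1, and overlapped Men1. Aff1 was the lowest member in YFPpos cells, at 7.21 RPKM ± 0.361 (n = 3) with SGC0649 and 5.38 ± 0.0954 (n = 3) with SGC0946. Of the 10 members, 5 had their highest mean CPM in naive cells, and 6 had their lowest in YFPpos SGC0946 cells. The same shares over all genes were not counted, so these counts do not set the members apart from other genes.

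**Figure D1:**
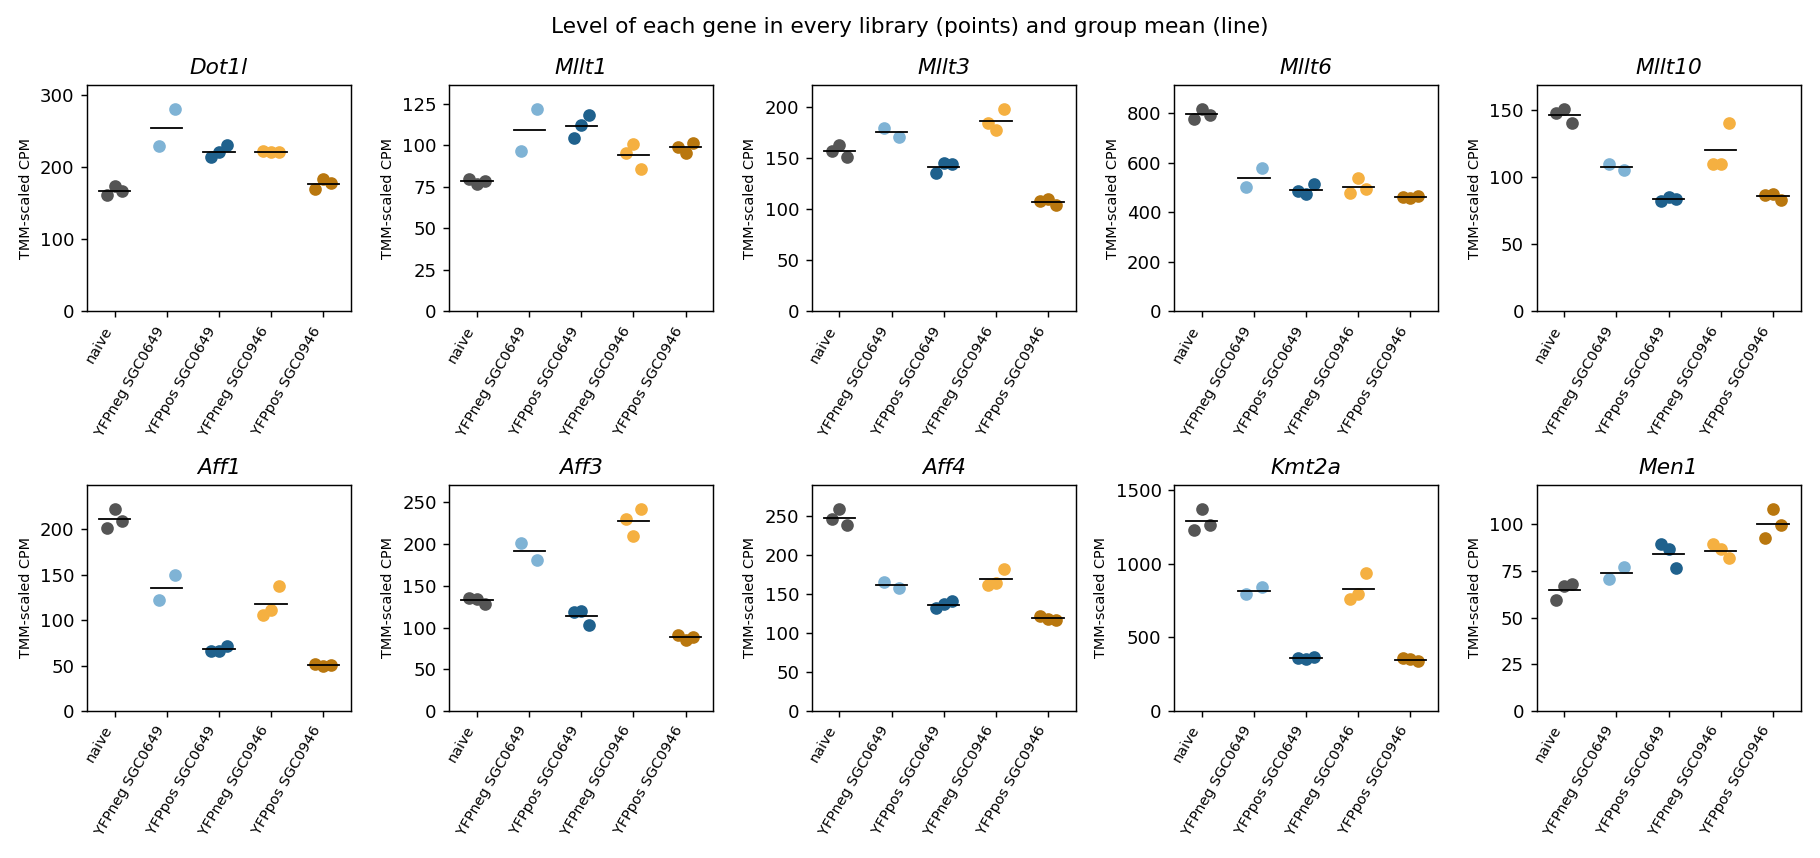
TMM-scaled CPM of each gene (y axis, from 0, separate for each gene) in every library (points) of the 5 groups (x axis), with the group mean as a line. Kmt2a falls from 1231 to 1372 CPM in naive libraries to 338.2 to 367.9 in YFPpos libraries. Mllt1 and Men1 are lowest in naive cells. The mean of Dot1l is also lowest there, but its naive libraries overlap those of YFPpos SGC0946.

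Dot1l (ENSMUSG00000061589, GRCm38 chromosome 10, 80755206 to 80795461, + strand) had 161, 172.9 and 166.8 CPM in the 3 naive libraries. The YFPneg SGC0649 libraries had 228.7 and 279.7 CPM and the YFPpos SGC0649 libraries 213, 220.1 and 229.5. With SGC0946, Dot1l was at 221.9, 220 and 220.7 CPM in YFPneg cells and at 169.7, 182.9 and 178.1 in YFPpos cells. The YFPpos SGC0946 libraries therefore overlapped the naive ones, and all other cultured libraries lay above both. The order of the means was naive, YFPpos SGC0946, YFPneg SGC0946 and YFPpos SGC0649 (both 221 CPM), then YFPneg SGC0649 (254 CPM).

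Mllt3 (ENSMUSG00000028496, chromosome 4, 87769925 to 88033364, - strand) encodes AF9, a reader of acylated histone lysines that recruits DOT1L. Its naive libraries had 157.4, 162.7 and 151.9 CPM. The YFPneg libraries lay above these, with 179.9 and 171.2 CPM for SGC0649 and 185.1, 178.1 and 198.3 for SGC0946. The YFPpos libraries lay below, with 135.5, 146 and 144.1 CPM for SGC0649 and 108.2, 110 and 103.9 for SGC0946. Mllt3 thus split by reporter around the naive level, and the 3 YFPpos SGC0946 libraries were the lowest of all 14.

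Mllt1 (ENSMUSG00000024212, chromosome 17, 56892611 to 56935415, - strand) encodes ENL, the paralog of AF9. It had 79.83, 76.57 and 78.2 CPM in naive cells, the lowest 3 of the 14 libraries. YFPneg cells had 96.32 and 121.7 CPM with SGC0649 and 95.57, 101 and 85.77 with SGC0946, and YFPpos cells 104.4, 111.9 and 118 with SGC0649 and 99.23, 95.55 and 101.5 with SGC0946. Replicate 2 of YFPneg SGC0649 was the highest of all 14 libraries here, as it was for Dot1l. Of the summed RPKM of the pair, Mllt3 held 39.6% ± 1.15 (SD, n = 3) in naive cells, 34.7% ± 4.54 (n = 2) in YFPneg SGC0649, 29.4% ± 0.760 (n = 3) in YFPpos SGC0649, 39.4% ± 3.30 (n = 3) in YFPneg SGC0946 and 26.2% ± 1.14 (n = 3) in YFPpos SGC0946. Per kilobase, ENL transcripts were the larger share in every group, most so in YFPpos cells. Without division by length, the mean CPM of Mllt3 was above that of Mllt1 in every group. The order of the 2 genes thus rests on the exon lengths used (3918 bases for Mllt1, 12004 for Mllt3).

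Mllt6 (ENSMUSG00000038437, chromosome 11, 97663414 to 97685463, + strand) encodes AF17, the paralog of AF10. It had 778.4, 816.5 and 791.4 CPM in naive cells and 459.1 to 577.8 CPM in the 11 cultured libraries, with no overlap. Mllt10 (ENSMUSG00000026743, chromosome 2, 18055237 to 18212388, + strand) encodes AF10, a cofactor needed for full H3K79 methylation. Its naive libraries had 148.1, 150.8 and 140.6 CPM, and its YFPpos libraries 82.45 to 87.29. In YFPneg cells it had 109.8 and 105.8 CPM with SGC0649 and 109.7, 110.1 and 140.7 with SGC0946, where the third library reached the naive range. Mllt6 held 76.9% to 82.2% of the summed RPKM of this pair in the 5 groups. Mllt10 shares 749 exon bases with Dnajc1 on the opposite strand, and the file name gives counting by the reverse strand.

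Aff1, Aff3 and Aff4 encode scaffolds that hold P-TEFb and ELL proteins. Aff1 (ENSMUSG00000029313, chromosome 5, 103692374 to 103855322, + strand) had 201.9, 222.4 and 209.1 CPM in naive cells. YFPneg libraries had 122 and 149.3 CPM with SGC0649 and 105.5, 111.1 and 138.1 with SGC0946, and YFPpos libraries 66.13, 66.4 and 72.2 with SGC0649 and 51.7, 49.9 and 50.98 with SGC0946. Naive, YFPneg and YFPpos libraries did not overlap, and within YFPpos cells neither did the compounds.

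Aff3 (ENSMUSG00000037138, chromosome 1, 38177326 to 38664955, - strand) had 135.6, 134.6 and 128.2 CPM in naive cells. It was higher in every YFPneg library, with 201.2 and 180.9 CPM for SGC0649 and 229.7, 208.9 and 241.8 for SGC0946. It was lower in every YFPpos library, with 118.5, 119.5 and 103 CPM for SGC0649 and 90.51, 84.9 and 89.07 for SGC0946. All 5 groups were apart from each other, and the compounds stood in opposite order in the 2 sorts. Aff4 (ENSMUSG00000049470, chromosome 11, 53350833 to 53421830, + strand), whose product is the main scaffold of the super elongation complex, had 246.2, 258.9 and 238 CPM in naive cells, 157.2 to 182.1 in YFPneg cells, 131.6 to 140.6 in YFPpos SGC0649 and 116.6 to 122.4 in YFPpos SGC0946.

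Aff1 held 36.8% ± 1.06 (SD, n = 3) of the summed AFF RPKM in naive cells and 19.6% ± 0.148 (n = 3) in YFPpos SGC0946. Aff3 went from 32.9% ± 0.955 (n = 3) in naive cells to 48.2% ± 0.594 (n = 3) in YFPpos SGC0946 and 57.7% ± 1.92 (n = 3) in YFPneg SGC0946. Per kilobase, the naive balance of the 3 genes was near even, and Aff3 was the largest share in all 4 cultured groups. By mean CPM, Aff4 was the highest in naive cells (248) and in YFPpos cells (136 with SGC0649, 119 with SGC0946), and Aff3 in YFPneg cells (191 and 227). The order in naive and YFPpos cells thus rests on the exon lengths used.

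**Figure D2:**
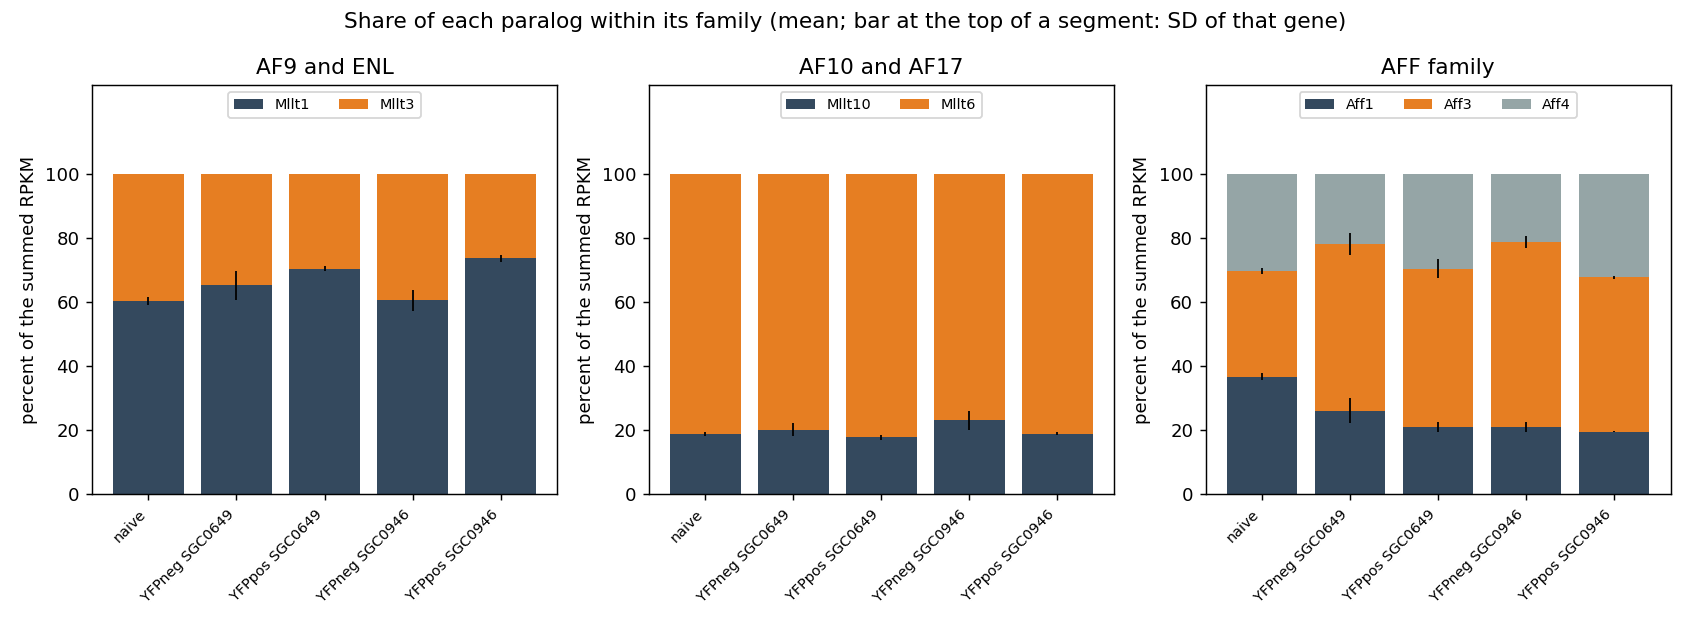
Percent of the summed RPKM (y axis) that each paralog holds in its family in the 5 groups (x axis), as stacked group means; the thin bar at the top of a segment is the SD of that gene's share. Mllt3 is smallest in YFPpos SGC0946 (26.2%), Mllt6 leads its pair in every group, and Aff3 holds 48.2% to 57.7% in cultured cells against 32.9% in naive cells.

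Kmt2a (ENSMUSG00000002028, chromosome 9, 44803355 to 44881296, - strand) encodes MLL1, an H3K4 methyltransferase known for holding active states at memory and lineage genes. It had 1231, 1372 and 1264 CPM in naive cells, 794.1 and 843 in YFPneg SGC0649, 757.6, 794.5 and 936.8 in YFPneg SGC0946, 362.2, 356.4 and 367.9 in YFPpos SGC0649 and 358.4, 353.6 and 338.2 in YFPpos SGC0946. These are 3 separate levels, naive, YFPneg and YFPpos, with the compounds overlapping within each sort. An antisense gene, AC061963.1, shares 378 exon bases with Kmt2a. Men1 (ENSMUSG00000024947, chromosome 19, 6334979 to 6340891, + strand), the gene of menin, had 59.45, 66.72 and 67.71 CPM in naive cells and ran the other way. It had 70.46 and 77.23 CPM in YFPneg SGC0649, 89.52, 86.76 and 76.4 in YFPpos SGC0649, 89.11, 86.68 and 81.73 in YFPneg SGC0946 and 92.42, 108.1 and 99.32 in YFPpos SGC0946, so that the naive group stood below and the YFPpos SGC0946 group above all others.

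Culture under Th1 conditions was first set against the naive state. In YFPpos SGC0649 cells Kmt2a fell by 1.83 on the log2 scale (SE 0.07; adjusted p 1.4e-13) and Aff1 by 1.63 (SE 0.09; 2.6e-11), while Dot1l rose by 0.40 (SE 0.07; 2.5e-05) and Mllt1 by 0.51 (SE 0.08; 2.0e-05). Aff4 fell by 0.86, Mllt10 by 0.80, Mllt6 by 0.70 and Aff3 by 0.22 (adjusted p 0.0079 for the last), and Men1 rose by 0.38 (3.2e-04). In all, 3 of 10 members rose and 7 fell, where 42.6% of all genes tested rose and 37.3% fell. The members' median change was -0.46, and that of all genes 0.09. Mllt3 fell by 0.15 (SE 0.06; adjusted p 0.024), a call that did not hold without naive replicate 1 (0.053), without naive replicate 2 (0.092), without YFPpos SGC0649 replicate 1 (0.1) or without the filter on low counts (0.061), with 0.011 to 0.1 over all its alternatives.

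In YFPneg SGC0649 cells Kmt2a fell by 0.65 (SE 0.08; adjusted p 9.7e-07) and Aff1 fell by 0.64 (SE 0.10; 2.8e-05). Dot1l rose by 0.61 (SE 0.07; 1.1e-06), Aff3 by 0.53 (SE 0.08; 1.2e-05) and Mllt1 by 0.48 (SE 0.09; 1.7e-04). Here 4 of 10 members rose, beside 36.4% of all genes, and 5 fell, beside 32.6%. Mllt3 was among those that rose, by 0.16 (adjusted p 0.035), and was no longer past the threshold without naive replicate 1 (0.071), without naive replicate 3 (0.12), without YFPneg SGC0649 replicate 1 (0.19) or with DESeq2 size factors (0.05), with 0.014 to 0.19 over its alternatives. Men1 had 0.19 (0.066), and was called higher without the filter on low counts (0.048) and with only the groups compared (0.027), with 0.027 to 0.35 over its alternatives. The naive libraries enter each of these comparisons, so they are not independent of each other.

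With the inhibitor, YFPpos cells had Aff1 at -2.05 (SE 0.09; adjusted p 1.3e-12) and Aff4 at -1.06 (SE 0.06; 1.9e-11) against naive cells. Kmt2a fell by 1.88 (SE 0.07; 9.2e-14), and Mllt3 by 0.55 and Aff3 by 0.59. Men1 rose by 0.63 (SE 0.08; 1.2e-06) and Mllt1 by 0.34 (0.0011). The counts were 2 of 10 members higher, beside 42.2% of all genes, and 7 lower, beside 38.5%. Dot1l had 0.08 (95% interval -0.06 to 0.22; adjusted p 0.25), and passed the threshold with the fit limited to the groups compared (0.12; 0.015), with 0.015 to 0.5 over its alternatives. YFPneg SGC0946 cells had 5 of 10 members higher, beside 38.6% of all genes, and 5 lower, beside 34.3%. The 5 that rose were Aff3 by 0.77 (2.9e-08), Men1 by 0.41, Dot1l by 0.40, Mllt1 by 0.27 and Mllt3 by 0.25 (8.3e-04), and the 5 that fell were Aff1 by 0.84, Mllt6 by 0.66, Kmt2a by 0.64, Aff4 by 0.55 and Mllt10 by 0.29.

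**Figure D3:**
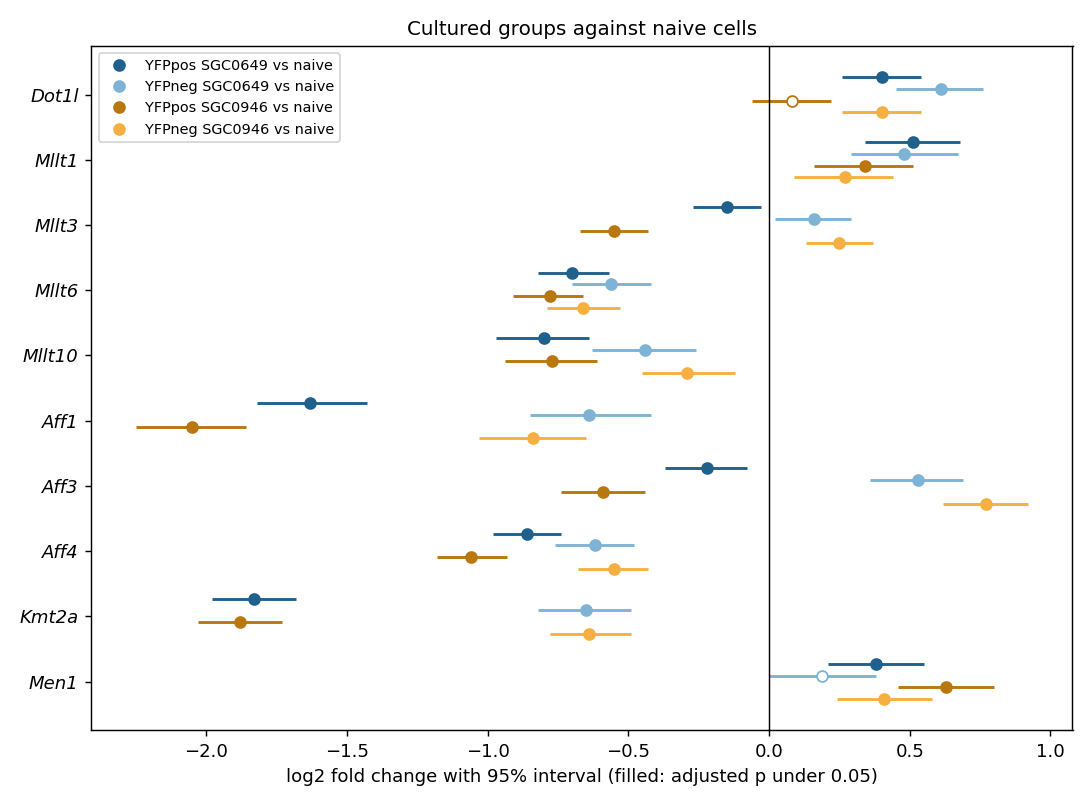
Log2 fold change of each cultured group against naive cells (x axis; points with 95% intervals, filled where the adjusted p is under 0.05) for each gene (y axis). Kmt2a and Aff1 are lower in all 4 groups and lowest in YFPpos cells, Aff3 and Mllt3 lie above 0 in YFPneg and below 0 in YFPpos cells, and the hollow points are Dot1l in YFPpos SGC0946 and Men1 in YFPneg SGC0649.

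Reporter-positive and reporter-negative cells of the same compound were compared next, which asks how interferon-gamma producers differed from non-producers. With SGC0649, Kmt2a fell by 1.18 (SE 0.08; adjusted p 3.1e-09), Aff1 by 0.99 (SE 0.10; 7.1e-07) and Aff3 by 0.75 (SE 0.08; 8.5e-07) in YFPpos against YFPneg cells. Mllt10 fell by 0.36 (0.0029) and Mllt3 by 0.31 (8.0e-04). None of the 10 members passed edgeR's test as higher, where 23.9% of all genes did, and 7 fell, where 21.3% did. By unadjusted p, 8 of 10 were under 0.05, and of these Men1 was the member with a positive change. The share of all genes under 0.05 by unadjusted p was not counted. DESeq2 and limma-voom also called 0 higher and 7 lower. Men1 had 0.19 (adjusted p 0.093), and was called higher without YFPpos SGC0649 replicate 3 (0.24; 0.041), with 0.041 to 0.4 over its alternatives. Mllt6 had -0.14 (0.1), and was called lower without YFPneg SGC0649 replicate 1 (-0.23; 0.02), with 0.02 to 0.8 over its alternatives. Dot1l fell by 0.20 (adjusted p 0.031), but had -0.05 (0.63) without YFPneg SGC0649 replicate 2, and was past the threshold neither without YFPpos SGC0649 replicate 1 (0.089) or replicate 2 (0.072) nor with the fit limited to the groups compared (0.058), with 0.0015 to 0.63 over its alternatives. Aff4 fell by 0.24 (0.0063), and had 0.063 without YFPneg SGC0649 replicate 1, the highest value of its alternatives (from 0.0017).

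With SGC0946 the same contrast gave -1.36 for Aff3 (SE 0.07; adjusted p 1.2e-10), -1.24 for Kmt2a (SE 0.07; 2.8e-10), -1.22 for Aff1 (SE 0.09; 1.3e-08) and -0.80 for Mllt3 (SE 0.06; 5.6e-09). Aff4 fell by 0.51, Mllt10 by 0.49 and Dot1l by 0.32 (5.9e-04). Men1 rose by 0.22 (0.026), a call lost without YFPneg SGC0946 replicate 3 (0.075), without YFPpos SGC0946 replicate 2 (0.13) or without YFPpos SGC0946 replicate 3 (0.056), with 0.0046 to 0.13 over its alternatives. Thus 1 of 10 members rose, beside 26.9% of all genes, and 7 fell, beside 27.8%. With DESeq2 size factors, all genes called were 3716 higher and 3048 lower in place of 3321 and 3431. The median of all genes moved by 0.05 with that scaling, and 8 members were called with either. Mllt1 (0.07, 95% interval -0.10 to 0.24) and Mllt6 (-0.12, -0.25 to 0.00) did not pass the test. Without YFPneg SGC0946 replicate 1, Mllt6 passed (-0.16; 0.046), with 0.046 to 0.32 over its alternatives. The median of the 10 members was -0.50, and that of all genes 0.01.

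**Figure D4:**
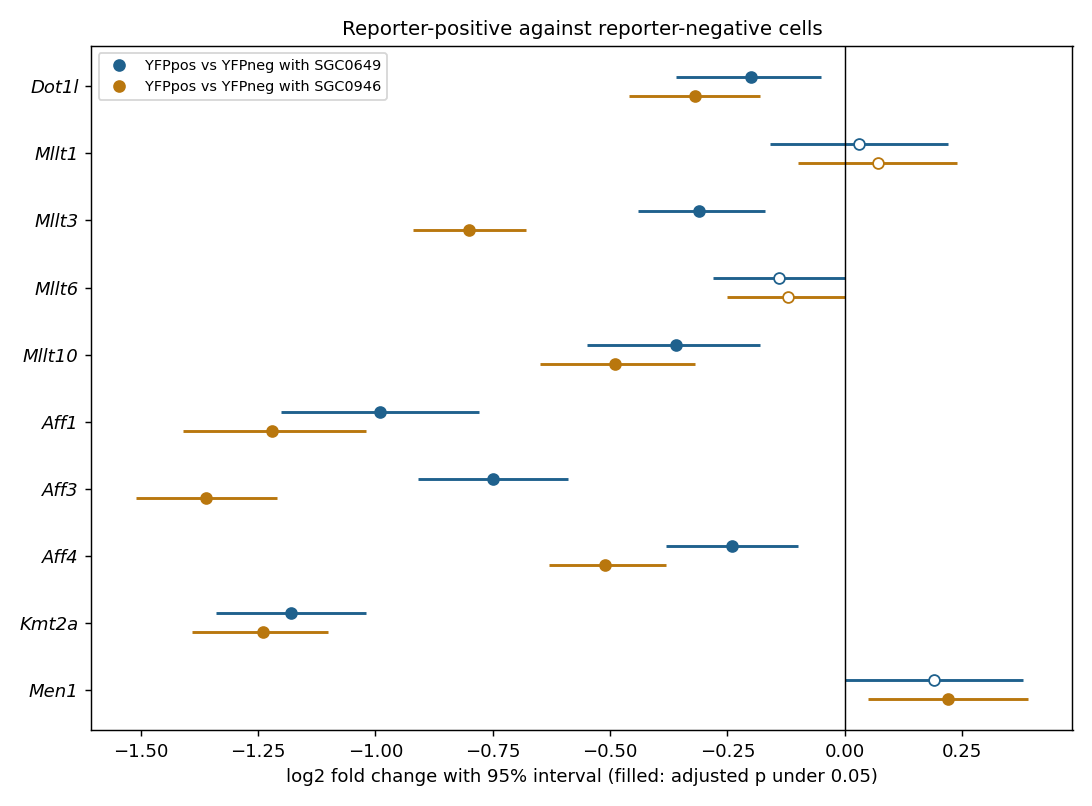
Log2 fold change of YFPpos against YFPneg cells with each compound (x axis; points with 95% intervals, filled where the adjusted p is under 0.05) for each gene (y axis). Kmt2a, Aff1 and Aff3 lie furthest below 0, and Mllt3 and Aff3 lie further below 0 with SGC0946 than with SGC0649.

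The comparison of the compounds asks how the transcripts of the 10 members differed between the DOT1L inhibitor and its control compound. In YFPpos cells Dot1l was at 221 CPM ± 8.29 (SD, n = 3) with SGC0649 and at 177 ± 6.67 (n = 3) with SGC0946, and so fell by 0.32 on the log2 scale (SE 0.07; adjusted p 0.002). Mllt3 fell by 0.40 (SE 0.06; 1.1e-04), Aff1 by 0.42 (SE 0.09; 0.0031) and Aff3 by 0.37 (SE 0.07; 0.0013). The libraries of the 2 compounds did not overlap at any of these 4 genes. They did not overlap at Aff4, Men1, Mllt1 and Mllt6 either, though Mllt1 and Mllt6 did not pass the test. The share of all genes without overlap was not counted. In all, 1 of 10 members rose, beside 12.1% of all genes, and 5 fell, beside 15.7%. With DESeq2 size factors, all genes called were 1702 higher and 1388 lower in place of 1490 and 1934, and the members called were 1 higher and 4 lower. The median of all genes was -0.04, and moved by 0.04 with that scaling.

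Aff4 and Men1 passed the test in YFPpos cells but not under every alternative. Aff4 fell by 0.20 (adjusted p 0.019), and lost the call with DESeq2 size factors (0.064), without the filter on low counts (0.056), without YFPpos SGC0649 replicate 2 (0.062) or 3 (0.089) and without YFPpos SGC0946 replicate 2 (0.068) or 3 (0.07), with 0.014 to 0.089 over its alternatives. Men1 rose by 0.25 (0.026), and lost the call without YFPpos SGC0649 replicate 2 (0.052) or 3 (0.14) and without YFPpos SGC0946 replicate 2 (0.14) or 3 (0.058), with 0.0047 to 0.14 over its alternatives. Mllt1 had -0.17 (95% interval -0.34 to 0.00; 0.12), Mllt6 -0.08 (-0.21 to 0.04), Kmt2a -0.05 (-0.20 to 0.10) and Mllt10 0.03 (-0.14 to 0.20).

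In YFPneg cells none of the 10 members passed edgeR's test, where 4.99% of all genes rose and 3.64% fell. By unadjusted p, 4 were under 0.05, namely Aff3, Dot1l, Men1 and Mllt1. The share of all genes under that unadjusted threshold was not counted, so the 4 cannot be set against it. DESeq2 called 1 higher (Aff3) and limma-voom 0. Aff3 had 0.25 (95% interval 0.08 to 0.41; adjusted p 0.059), and 0.031 by DESeq2, 0.042 without the filter on low counts and 0.027 without YFPneg SGC0946 replicate 2 (its alternatives ranged from 0.027 to 0.32). Dot1l had -0.20 (-0.36 to -0.05; 0.089) and Mllt1 -0.21 (-0.40 to -0.02; 0.15). Both passed the threshold without YFPneg SGC0649 replicate 1, with -0.34 (0.014) and -0.37 (0.029); the remaining library of that group held the highest level of both genes. Aff1 had -0.20 (0.22), and -0.32 (0.022) without YFPneg SGC0946 replicate 3. With 2 libraries in the YFPneg SGC0649 group, these values have wider intervals than those in YFPpos cells.

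Whether the effect of SGC0946 differed between the sorts was tested as an interaction, the effect in YFPpos minus that in YFPneg cells. It differed for Aff3, with -0.61 (SE 0.11; adjusted p 0.0079), and for Mllt3, with -0.49 (SE 0.09; 0.0079). At both genes the change was negative in YFPpos cells (-0.37 and -0.40) and positive in YFPneg cells (0.25 and 0.09), where it did not pass the test. The count was 0 of 10 members higher, beside 0.259% of all genes, and 2 lower, beside 0.891%. By unadjusted p 3 members, Aff3, Aff4 and Mllt3, were under 0.05 and negative, and the share of all genes there was not counted. DESeq2 and limma-voom also called 0 higher and 2 lower. All genes called were 32 higher and 110 lower, or 39 and 80 with DESeq2 size factors. Without YFPneg SGC0649 replicate 2, Aff3 had -0.54 and an adjusted p of 0.05, the highest of its alternatives (from 1.2e-04), and the range for Mllt3 was 6.0e-05 to 0.074, so that its call did not hold under every alternative. Aff4 had -0.27 (0.18) and Dot1l -0.12 (95% interval -0.33 to 0.09; 0.65), so a difference between the sorts was not shown for Dot1l. CD8 T cell markers were higher in the YFPneg SGC0946 libraries (12.2 to 19.7 CPM) than in the YFPneg SGC0649 libraries (6.50 to 9.51 CPM), and their part in the result was not tested.

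**Figure D5:**
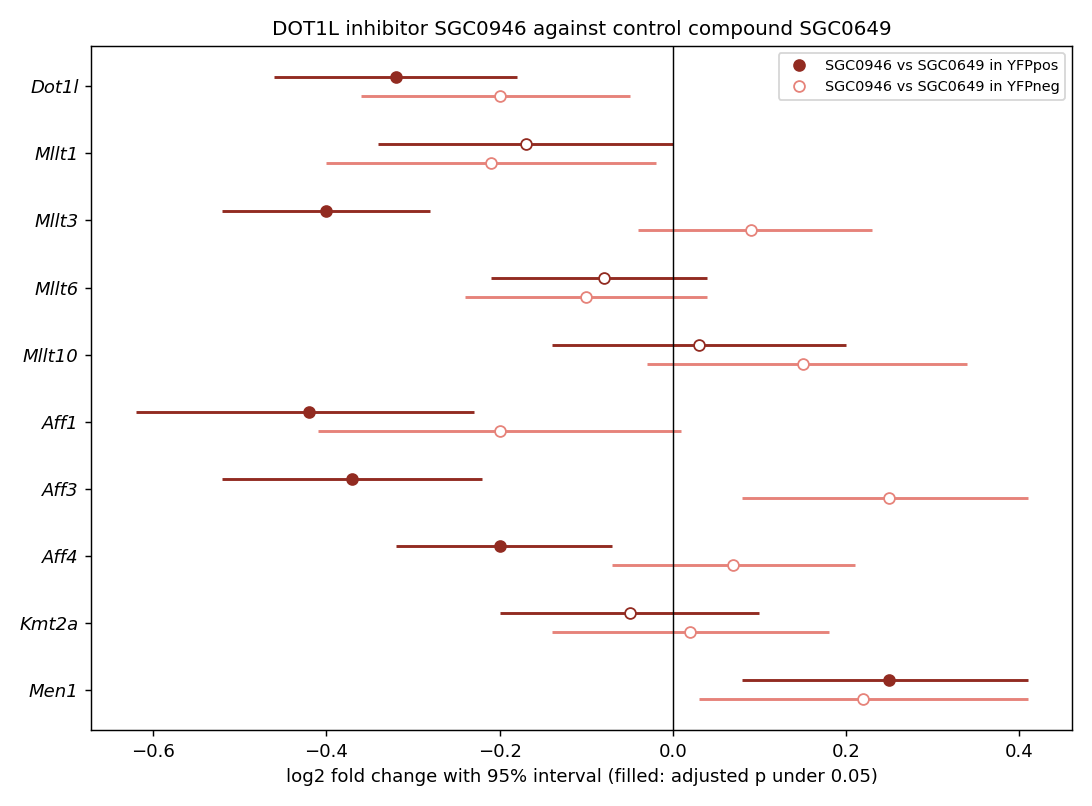
Log2 fold change of SGC0946 against SGC0649 (x axis; points with 95% intervals, filled where the adjusted p is under 0.05) in YFPpos and YFPneg cells for each gene (y axis). In YFPpos cells Dot1l, Mllt3, Aff1, Aff3 and Aff4 lie below 0 and Men1 above; Mllt3 and Aff3 are the genes whose intervals in the 2 sorts are furthest apart.

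The complexes in which these proteins work were followed through 4 further lists of genes. Among 15 genes of the menin and MLL complexes other than the members, 14 were tested, and in YFPpos SGC0649 cells against naive cells 5 rose and 9 fell, with a median of -0.43. All genes tested stood at 42.6% higher and 37.3% lower in that comparison, with a median of 0.09, and the counts of the other lists against naive cells stand beside the same shares. Kmt2d and Kmt2c, the H3K4 methyltransferases of enhancers, fell by 2.53 (SE 0.08; adjusted p 4.8e-15) and 2.94 (SE 0.10; 2.7e-14). Kmt2d had 1640 CPM ± 105 (SD, n = 3) in naive cells and 285 ± 1.54 (n = 3) in YFPpos SGC0649. Paxip1, a subunit of the same complexes, rose by 0.88 (SE 0.06). In YFPpos against YFPneg cells Kmt2d had -1.03 and Kmt2c -1.04 with SGC0649, and -1.12 and -1.39 with SGC0946, all past the threshold.

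Of 14 elongation genes 13 were tested, and against naive cells 5 rose and 6 fell in YFPpos SGC0649 cells, with a median of -0.11. Ell2, an elongation factor that binds AFF scaffolds, had 2.54 CPM ± 0.410 (SD, n = 3) in naive and 26.3 ± 1.03 (n = 3) in YFPpos SGC0649 cells, a rise of 3.37 (SE 0.15; 9.7e-13). Supt16, a subunit of the histone chaperone FACT, rose by 1.00, and Ccnt2, a cyclin of P-TEFb, fell by 1.24 (adjusted p 1.6e-11 and 2.4e-11). Of 5 tested DOT1L associates 1 rose (Npm1, nucleophosmin, 1.53) and 2 fell (Cbx8, a Polycomb subunit that binds AF9, -1.77, and Trrap, a histone acetyltransferase subunit, -0.70). Of 12 tested genes of H2B ubiquitination and the PAF1 complex, which act upstream of H3K79 methylation, 3 rose and 8 fell. The 3 were Wdr61 (1.14), Leo1 (1.20) and Ube2a (0.85), and the list's median was -0.36.

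Between the compounds, fewer of these genes passed the test. Over the 4 lists, 44 genes were tested, of which 1 rose and 11 fell with SGC0946 in YFPpos cells, beside 12.1% and 15.7% of all genes. In YFPneg cells 1 rose and 3 fell, beside 4.99% and 3.64%. The 1 that rose in YFPpos cells was Ell2, by 0.75 (SE 0.11; adjusted p 2.3e-04), to 44.1 CPM ± 3.53 (SD, n = 3). Larp7, which holds P-TEFb in its inactive 7SK particle, fell by 0.47 in YFPpos cells (SE 0.08; 3.2e-04) and fell by 0.60 in YFPneg cells (SE 0.09; 1.0e-03). Supt16 fell by 0.27 in YFPpos cells (0.0016). These 4 calls held under every alternative.

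The other list genes named here passed the test but not under every alternative. In YFPpos cells they were the DOT1L associates Ctnnb1 (-0.16), Npm1 (-0.26) and Skp1a (-0.24), the MLL complex genes Ash2l (-0.20), Hcfc1 (-0.18) and Paxip1 (-0.19), and the PAF1 complex genes Wdr61 (-0.28) and Ctr9 (-0.22). Their highest adjusted p was 0.1, 0.14, 0.11, 0.079, 0.068, 0.084, 0.066 and 0.13 in that order, and their lowest was 0.01, 0.0031, 0.014, 0.0069, 0.0067, 0.01, 0.0039 and 0.017. DESeq2 size factors ended the calls of Ctnnb1 (0.097), Skp1a (0.055), Hcfc1 (0.068), Paxip1 (0.061) and Ctr9 (0.063). Each of the 6 YFPpos libraries ended at least 1 of these calls when left out. In YFPneg cells they were Supt16 (-0.22; adjusted p 0.031, and 0.0033 to 0.26 over the alternatives), Paxip1 (-0.26; 0.019, and 0.0017 to 0.29) and Kmt2c (0.38; 0.037, and 0.01 to 0.16). Leaving out YFPneg SGC0649 replicate 1 ended all 3 of these calls (0.12, 0.092 and 0.16). In the test of the interaction edgeR, DESeq2 and limma-voom each called 0 of the 44 genes, and 7, 5 and 7 had an unadjusted p under 0.05. The share of all genes at that unadjusted threshold was not counted. The medians of the 4 lists in YFPpos cells lay between -0.16 and -0.08, beside -0.04 for all genes.

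Across the 14 libraries, Aff1 and Kmt2a had the closest log2 CPM of any 2 members (Pearson r = 0.978), followed by Mllt10 with Kmt2a (0.966) and Aff1 with Aff4 (0.959). Mllt3 and Aff3 had r = 0.937, and Aff4 and Men1 -0.875. Dot1l followed none of the others as closely, with 0.717 for Mllt1 as its highest. Outside the members, the 5 genes most like Dot1l were Nfkb1 (0.95), Anks1 (0.946), Mtmr3 (0.933), Eml4 (0.93) and Tjap1 (0.929). Nfkb1, the gene of the NF-kappaB subunit p105, had mean levels of 356 CPM in naive cells, 639 and 610 in YFPneg and YFPpos SGC0649 cells, and 559 and 406 in YFPneg and YFPpos SGC0946 cells. These correlations describe 14 libraries that fall into 5 groups, so the points are not independent.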

How the data were processed

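The authors deposited raw read counts per gene (whole numbers, not normalized) for 14 libraries. The submitters' processing notes name featureCounts, edgeR, limma and genome build GRCm38, without versions, and no source used here names the aligner. Per the labels' protocols, the RNA was extracted with a column kit and libraries followed standard Illumina steps. In edgeR 4.0.16 (R 4.3.3), filterByExpr by group left 12343 of 22048 genes, libraries were scaled by TMM, and all 14 entered 1 quasi-likelihood fit with a term per group (common dispersion 0.00831), without a replicate block. Each of the 9 comparisons was tested with the quasi-likelihood F test, with Benjamini-Hochberg adjustment over the 12343 genes and a threshold of 0.05. Standard errors are the absolute log2 fold change over the square root of F. RPKM used exon lengths of GENCODE M21 (GRCm38), with all annotated exons of a gene merged, whether used in these cells or not. Scripts were tested on simulated data. Alternatives were no filter, DESeq2 size factors, DESeq2 1.42.0, limma-voom 3.58.1, only the groups compared, a replicate block and each library left out. Genes named were all members, up to 3 genes per list with the smallest p in a comparison, and the 5 most like Dot1l; others are named where a count of 5 or fewer is spelled out. Members and lists were chosen with earlier results of these data known.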

Additional observations from a re-analysis of the deposited data

Results flagged for a closer look

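The effect of SGC0946 differed between YFPpos and YFPneg cells, by edgeR's test of the interaction, for 2 members. For Aff3 the difference was -0.61 on the log2 scale (SE 0.11, adjusted p 0.0079), with -0.37 in YFPpos and 0.25 in YFPneg cells. The YFPpos libraries were lower and the YFPneg libraries higher with SGC0946 without overlap. In YFPneg cells the change did not pass edgeR's test (adjusted p 0.059). Without YFPneg SGC0649 replicate 2, the Aff3 difference was -0.54 and its call did not hold. For Mllt3 it was -0.49 (SE 0.09; adjusted p 0.0079), with -0.40 in YFPpos and 0.09 in YFPneg cells, where the libraries of the compounds overlapped. The adjusted p for Mllt3 was 6.0e-05 to 0.074 over the alternatives, so that its call did not hold under all of them.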

How the results depend on the processing

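All called values kept their sign. Of 90 member values, 72 stayed on 1 side of the threshold under every alternative, and of 61 past it 52 did. For the list genes only the 3 with the smallest p per list and comparison were followed, 108 values in all. Of these, 87 were past the threshold, and 72 stayed past it under every alternative. The other list genes are not in this count. For SGC0946 in YFPneg cells, 1 member was called in place of 0 without the filter on low counts and by DESeq2, and 0 to 2 with 1 library left out. All genes called there were 1065, against 1615 by DESeq2, 199 with only the groups compared and 335 to 1520 with 1 library left out (335 without YFPneg SGC0649 replicate 2). In YFPpos cells 3424 genes were called, against 4751 with only the groups compared, 4058 by limma-voom and 1886 to 3449 with 1 library left out (1886 without YFPpos SGC0649 replicate 3, 2004 without YFPpos SGC0946 replicate 2). The interaction had 142 genes, against 301 by DESeq2, 56 with only the groups compared and 61 to 241 with 1 library left out, 241 without YFPneg SGC0946 replicate 2; of members, 2 were called, and 1 to 2 with 1 library left out. The cause of these shifts was not tested. The labels do not say whether shared replicate numbers pair the sorts. Same-number deviations from the group mean had r of 0.04 to 0.15, with 2 of 5 pairs over 0.1, and different numbers had -0.15 to 0.12. With 2 libraries in YFPneg SGC0649, their deviations mirror each other, so the SGC0649 values recur with opposite sign and both ends of the second range are forced. With SGC0946, same numbers had 0.11, 0.08 and 0.04, and different numbers -0.07 to -0.01. Deviations within a group sum to 0, which ties these values together too. These values do not settle whether the sorts were paired. With the replicate block, the interaction called 1 member (Aff3), Mllt3 had -0.45 (adjusted p 0.074), and 96 genes were called in all. The block gave 4342 genes for YFPpos against YFPneg with SGC0649 and 6219 with SGC0946.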

Other observations

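The HoxA genes and Meis1, the classic targets of DOT1L in MLL-rearranged leukaemia, had few counts in these T cells. Of the 13 genes of this list, which also holds Pbx3, Hoxa4, Hoxa5, Hoxa7 and Pbx3 passed the filter on low counts. Hoxa9 and Hoxa11 had 0 counts in all 14 libraries, Hoxa10 and Hoxa13 had 1 count each in YFPpos SGC0649 cells, and Meis1 had 4 counts, all in YFPpos SGC0946 cells. Of the HoxA genes, Hoxa7 had the most, with 82 counts over the 3 naive libraries, 6 over the 2 YFPneg SGC0649, 1 over the 3 YFPpos SGC0649, 32 over the 3 YFPneg SGC0946 and 0 over the 3 YFPpos SGC0946 libraries. Hoxa5 had 43, 15, 2, 16 and 1 counts in the same order of groups. In YFPneg SGC0946, 1 library held 15 of the 16 Hoxa5 counts and 1 library held 21 of the 32 Hoxa7 counts. In YFPneg SGC0649, all 6 Hoxa7 counts came from 1 library. Hoxa7 passed the filter on low counts through the naive libraries, which held 22 to 33 counts each. Its tests against naive cells thus start from the group that let it in, and their p-values are no independent support for a fall. Hoxa7 passed edgeR's test as lower than naive in YFPneg SGC0649 (adjusted p 0.0076), YFPpos SGC0649 (1.3e-04) and YFPpos SGC0946 cells (4.7e-05), but not in YFPneg SGC0946 (0.13), where limma-voom (0.018) and the fit without YFPneg SGC0946 replicate 3 (0.0065) called it lower (0.0065 to 0.31 over its alternatives). The YFPneg SGC0649 call did not hold without YFPneg SGC0649 replicate 2 (0.07, with 0.0014 to 0.07 over its alternatives). No fold is given for Hoxa7, since both YFPpos groups were at 0 or 1 count. Pbx3, a partner of the HOX proteins, had more counts and rose against naive cells in all 4 cultured groups, by 1.32 on the log2 scale (SE 0.42; adjusted p 0.011) in YFPneg SGC0649, 2.35 (SE 0.37; 1.8e-05) in YFPpos SGC0649, 1.86 (SE 0.38; 3.4e-04) in YFPneg SGC0946 and 2.77 (SE 0.37; 2.3e-06) in YFPpos SGC0946 cells. The call in YFPneg SGC0649 did not hold without naive replicate 1 (1.03; 0.051) or without YFPneg SGC0649 replicate 1 (0.68; 0.26), with 0.0031 to 0.26 over its alternatives, and the other 3 held under every alternative. The total for Pbx3 was 45 counts over the 3 naive libraries and 496 over the 3 YFPpos SGC0946 libraries.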
